A study of Drosophila melanogaster with 17 samples.

Results

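The sugar transporter genes described here are the 7 genes of the count table named sut1, sut2, sut3, sut4, Tret1-1, Tret1-2 and Glut1, out of 17559 genes in the table, of which 16163 had any count. They were chosen by name, and because sut3 stood out in one genotype, the mutant human tyrosyl-tRNA synthetase (TyrRS) without its nuclear localization signal. For this reason all values in that genotype are a description, and tests are given only for comparisons between the other genotypes. RNA came from dissected brains of adult Drosophila melanogaster aged 10 days, and a total of 17 poly(A) libraries of 5 genotypes were counted. In all of them the nSyb-Gal4 driver, which is active in neurons throughout the nervous system, was present. The control carried the driver alone (nSyb-Gal4>+, 3 libraries), while the others expressed human TyrRS-WT (3 libraries), TyrRS-WT∆NLS (3 libraries), TyrRS-E196K (4 libraries) or TyrRS-E196K∆NLS (4 libraries). The labels write the genotypes lacking the signal as WT-NLS and E196K-NLS. E196K is a mutation that causes dominant intermediate Charcot-Marie-Tooth neuropathy in humans.

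According to the methods, 2 copies of the transgene were present in TyrRS-WT and in TyrRS-WT∆NLS, while TyrRS-E196K had 1 and TyrRS-E196K∆NLS had 3. The paper reports that transgene expression in neurons was comparable between these lines, apart from TyrRS-WT∆NLS, where it was slightly lower. Copy number, insertion site and genetic background therefore change with the genotype and cannot be told apart from it. The labels do not say whether replicates of a genotype came from separate crosses, so p-values measure only the spread between these libraries. Libraries were sequenced in 2 batches, but the batch of each library is not given in the labels, so no values within a batch are given.

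Members of the SLC2 family of sugar carriers let sugars pass cell membranes down their gradient. In insects the main sugar of the haemolymph is trehalose, made in the fat body, and the glia that seal the brain take it up, break it down by glycolysis and hand lactate and alanine to neurons. Tret1-1 is the trehalose transporter found in the outermost, perineurial glia of the Drosophila blood-brain barrier, and Tret1-2 is its close relative in the genome. Glut1 encodes the fly's glucose transporter most similar to human GLUT1. The 4 sut genes are annotated as sugar transporters by sequence similarity, and less is known about their roles in the brain. The members compared here are thus carriers at the brain surface, a general glucose carrier and a group of less studied relatives.

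All members except Glut1 lie on chromosome arm 2R, and Glut1 on 3L (BDGP6 assembly). sut1 (FBgn0028563, 8082976 to 8087151), sut2 (FBgn0028562, 8087396 to 8089297) and sut3 (FBgn0028561, 8089482 to 8091297) follow each other on the plus strand, with 244 bp and 184 bp between them. The next gene on the same strand, 398 bp after sut3, is sandman (sand, listed as CG8713), which encodes a potassium leak channel. sut4 (FBgn0028560) lies apart, at 10085442 to 10087127 on the minus strand, within the span of CG2269. Tret1-1 (FBgn0050035, 11665768 to 11674782) and Tret1-2 (FBgn0033644, 11675935 to 11678014) are plus-strand neighbours 1152 bp apart, within the span of Roc2. Glut1 (FBgn0264574) spans 914074 to 993788 on the plus strand of 3L. Of these overlaps with genes of the opposite strand, the one between sut1 and slv includes shared exon sequence, 183 bp. The kit did not keep the strand, which leaves the origin of reads from this stretch unknown. Reads shared by near-identical stretches of related genes could have been split or dropped by the counting, which adds uncertainty to levels of Tret1-2 and of the sut genes.

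Each library had 29380481 to 56030758 counts on genes, and levels are given as CPM (counts scaled to a library total of 1e+06) after TMM scaling. Differences were fitted with the quasi-likelihood test of edgeR on all genes and all libraries, with Benjamini-Hochberg adjustment over 16163 genes and a threshold of 0.05. All defining markers of glia and neurons were detected: repo, a glial transcription factor, had 127 to 168 CPM and elav, a neuronal RNA-binding protein, 252 to 494 CPM. Photoreceptor and fat body transcripts were present too, since the summed level of 8 retina genes was 8368 to 21745 CPM and that of 8 fat body genes 13778 to 53436 CPM, most of it from the yolk protein genes Yp1, Yp2 and Yp3. In bulk tissue fewer cells of a type and less RNA per cell cannot be told apart.

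Levels of the members spanned a wide range. Compared per length, as FPKM (CPM divided by the annotated exon length in kb), Tret1-1 had the highest mean over the 17 libraries (119 FPKM, range 96.7 to 150) and Glut1 followed with 56.4 FPKM (42.7 to 68.2). The exons of all annotated Glut1 isoforms add up to 10933 bp, so its FPKM is a low estimate if the shorter isoforms prevail. sut1 (3.17 FPKM), sut2 (3.02 FPKM), Tret1-2 (1.2 FPKM) and sut3 (0.884 FPKM) were far lower, and sut4 was lowest at 0.0503 FPKM. The ranges of sut1, sut2 and Tret1-2 over libraries overlapped, so their order is not set beyond their spread. The highest sut3 library (3.05 FPKM) reached the average level of sut2, while its lowest had 0.0286 FPKM. All 7 members had at least 1 count in every library, and all but sut4 averaged 1 CPM or more.

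**Figure D1:**
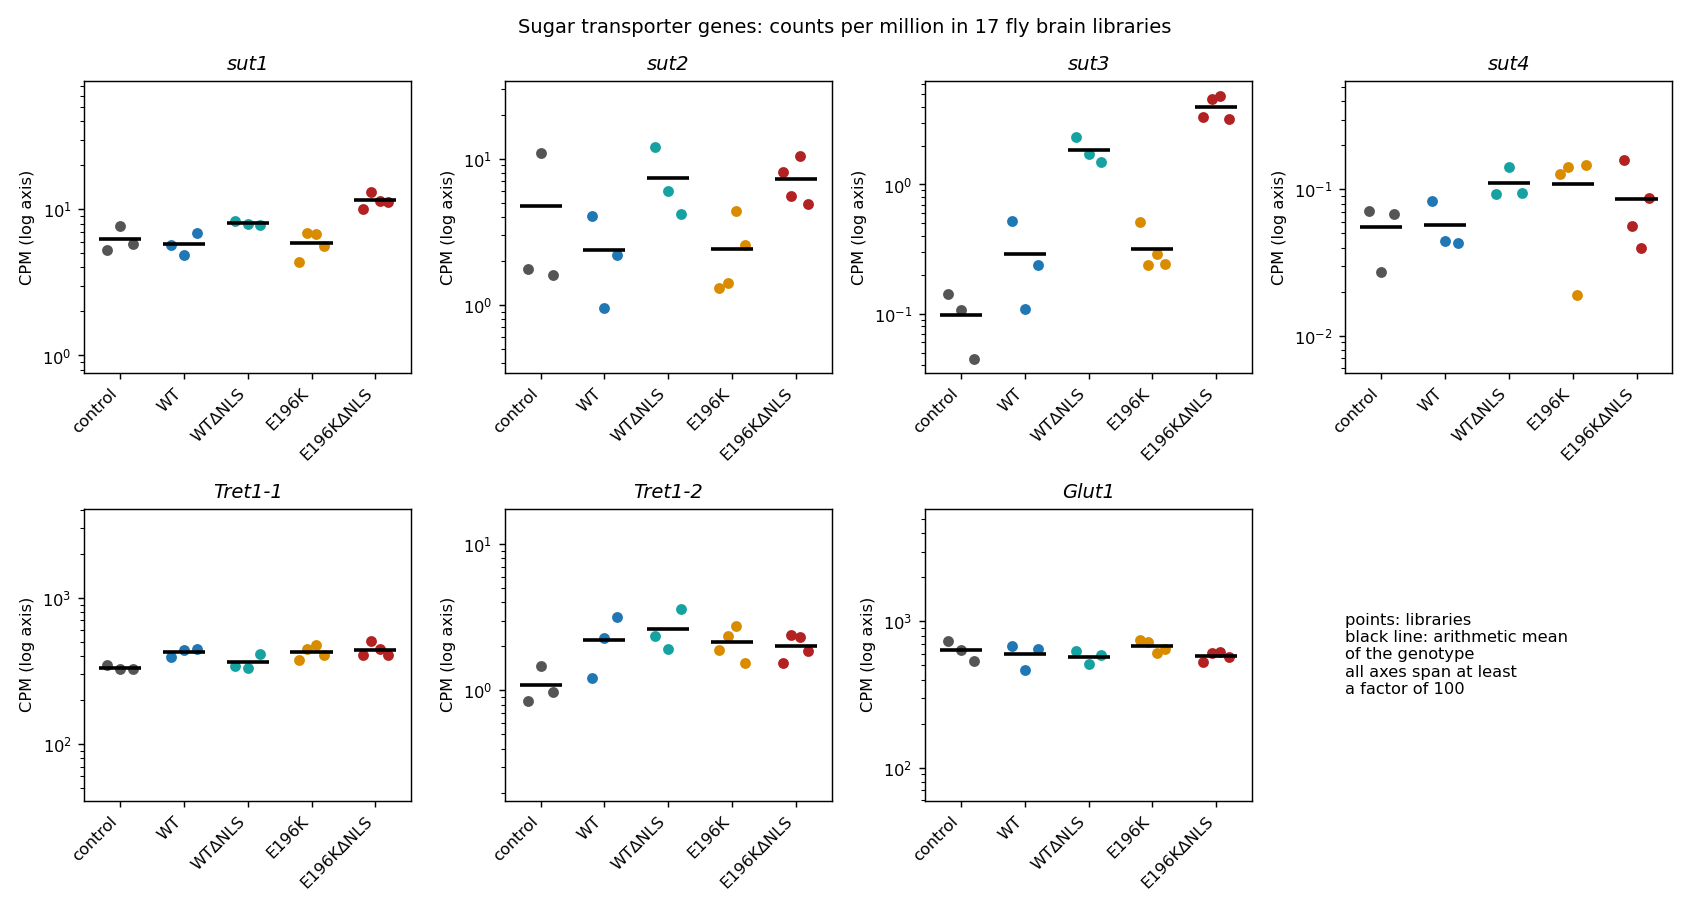
CPM of the 7 sugar transporter genes in each of 17 brain libraries, on logarithmic axes that each span at least a factor of 100, with 1 panel for each gene. Points are libraries grouped by genotype and black lines are arithmetic means. sut3 runs from 0.045 CPM in a control library to 4.86 CPM in a TyrRS-E196K∆NLS library, whereas Glut1 stays between 467 and 746 CPM.

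Of the members, sut3 differed most between genotypes. In the control it had 0.141, 0.106 and 0.045 CPM, which are 4, 4 and 2 counts. In TyrRS-WT the libraries had 0.521, 0.109 and 0.237 CPM, and in TyrRS-E196K 0.509, 0.237, 0.288 and 0.244 CPM. In TyrRS-WT∆NLS sut3 had 2.32, 1.73 and 1.48 CPM, which are 125, 85 and 79 counts. Thus every TyrRS-WT∆NLS library lay above all control, TyrRS-WT and TyrRS-E196K libraries. The libraries of TyrRS-E196K∆NLS, the genotype that led to the choice of this gene, had 3.31, 4.59, 4.86 and 3.19 CPM, which was above every other library.

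The comparison of TyrRS-WT∆NLS with the control sets a line with this transgene beside the driver alone. Insertion site and genetic background also differ between them. Here sut3 rose, from a mean of 0.0976 ± 0.0485 CPM (SD, n = 3) to 1.84 ± 0.434 CPM (SD, n = 3), with a fitted log2 fold change of 4.27 ± 0.50 (SE, adjusted p = 4.72e-05, edgeR). Since the control rests on 10 counts in all, the size is loosely known: the ratio of summed counts per effective library size was 20.3, with an exact 95% interval of 10.9 to 42.9 that covers counting error only. The rise was called under each of 23 alternative settings, with adjusted p between 4.11e-11 and 0.000903. Tret1-2 was the other of 2 members called here, and both were higher, where 2.39% of all genes tested were called higher. The median log2 fold change of the 7 members was 0.63, beside 0.00 over all genes.

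TyrRS-WT and TyrRS-WT∆NLS had the same number of transgene copies and differ in the nuclear signal. They also differ in insertion, in the slightly lower transgene expression reported for TyrRS-WT∆NLS, and in whatever else the lines carry. sut3 was lower in TyrRS-WT than in TyrRS-WT∆NLS in all libraries, by a fitted log2 fold change of -2.66 ± 0.43 (SE, adjusted p = 0.00211, edgeR), and this call held in all 23 alternatives, with adjusted p of at most 0.0465. The ratio of summed counts of TyrRS-WT∆NLS over TyrRS-WT was 6.33 (95% interval 4.55 to 9.0, counting error only). It was the 1 member called in this comparison, where 0.557% of all genes were called lower. sut1, sut2, and sut4 also did not overlap between these genotypes, all being lower in TyrRS-WT, but none of them passed the test. Libraries did not overlap in this direction for 6.84% of all genes. The summed level of the 8 retina genes was also lower in TyrRS-WT (8368 to 10474 CPM) than in TyrRS-WT∆NLS (12302 to 16720 CPM), and its part in these differences was not tested.

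In TyrRS-E196K, sut3 was slightly higher than in the control, with a mean of 0.319 ± 0.128 CPM (SD, n = 4) and no overlap of libraries. The fitted log2 fold change was 1.75 ± 0.50 (SE, adjusted p = 0.0451, edgeR), which made it the 1 member called in this comparison, where 3.03% of genes were called higher. This call did not last: adjusted p ranged from 0.0190 to 0.243 over the 23 alternatives and exceeded 0.05 in 16 of them, including every fit without a control or a TyrRS-E196K library. TyrRS-WT differed from the control by a similar amount, 1.61 ± 0.53 on the log2 scale (SE, adjusted p = 0.143, edgeR), and its libraries overlapped with those of the control. Between TyrRS-E196K and TyrRS-WT the difference was 0.14 (95% interval -0.67 to 0.96, adjusted p = 0.962, edgeR). In order of the mean, the genotypes were control, TyrRS-WT, TyrRS-E196K, TyrRS-WT∆NLS and TyrRS-E196K∆NLS, and in this order only TyrRS-WT overlapped with its neighbours.

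As a description, sut3 was 5.38 ± 0.50 (SE) higher on the log2 scale in TyrRS-E196K∆NLS than in the control, 3.63 ± 0.38 higher than in TyrRS-E196K and 1.11 ± 0.37 higher than in TyrRS-WT∆NLS. No test of the members is given for these comparisons, because the genotype was used to choose the genes. As background, the shares of all genes called in either direction were 4.79% against control and 3.8% against TyrRS-WT. Against TyrRS-WT∆NLS and TyrRS-E196K they were 1.41% and 5.6%. The summed level of the 8 fat body genes was 39578 to 53436 CPM in TyrRS-E196K∆NLS and 13778 to 37355 CPM in all other libraries, so it moved with sut3 in this genotype, and its part in the sut3 level was not tested. In TyrRS-WT∆NLS, where sut3 also rose, the fat body sum was 21170 to 34882 CPM, within the range of TyrRS-WT (20938 to 37355 CPM). Of the genes that define fat body, Fbp1 was at 0.403 to 1.63 CPM over all libraries. The mean of Fbp1 was lowest in TyrRS-WT∆NLS (0.575 CPM) and TyrRS-E196K∆NLS (0.647 CPM), and 0.739 to 1.06 CPM in the others. Other listed fat body genes went both ways between TyrRS-WT∆NLS and control. Means were lower in TyrRS-WT∆NLS for Rfabg (4280 CPM, control 5447 CPM), Yp1, Yp2 and fit. They were higher for Yp3 (10914 CPM, control 10564 CPM) and for the gene with the symbol to (62.6 CPM, control 29.2 CPM). The mean of this last gene was 22.9, 19.6 and 24.3 CPM in TyrRS-WT, TyrRS-E196K and TyrRS-E196K∆NLS. Its control libraries spread widely (lowest 1.43 CPM, highest 83.9 CPM) and overlapped with TyrRS-WT∆NLS. Its part in the sut3 level was not tested. Lsp2, a larval storage protein gene, was at 0.671 to 9.09 CPM in the control, 2.28 to 5.99 CPM in TyrRS-WT, 8.35 to 13.3 CPM in TyrRS-WT∆NLS, 0.672 to 8.73 CPM in TyrRS-E196K and 0.883 to 21.2 CPM in TyrRS-E196K∆NLS. Its mean was thus highest in the ∆NLS genotypes (10.0 and 12.5 CPM, 2.8 to 3.79 CPM in the others), as was that of sut3, although the control overlapped with both, and its part in the sut3 level was not tested. The summed level of 10 glial genes overlapped between TyrRS-WT∆NLS (3896 to 4471 CPM) and control (4156 to 4617 CPM), as did that of 8 neuronal genes (6160 to 8023 CPM and 7020 to 9690 CPM) and of 8 retina genes (12302 to 16720 CPM and 15167 to 19620 CPM).

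The neighbours of sut3 on the chromosome did not all behave alike. sand had 0.601, 0.637 and 0.546 CPM in the control, 0.959, 0.718 and 0.991 CPM in TyrRS-WT, and 2.36, 1.57 and 1.61 CPM in TyrRS-WT∆NLS. It rose in TyrRS-WT∆NLS against control by 1.63 ± 0.23 on the log2 scale (SE, adjusted p = 0.000285, edgeR), a call kept in all 23 alternatives. Against TyrRS-WT∆NLS it was lower in TyrRS-WT by 1.05 on the log2 scale (adjusted p = 0.0180, edgeR), and this call was kept in 18 of 23 alternatives, with adjusted p of up to 0.132. In TyrRS-E196K sand had 0.530 to 0.804 CPM, overlapping with the control (adjusted p = 0.615, edgeR), and in TyrRS-E196K∆NLS 4.01, 4.63, 5.60 and 4.23 CPM. sand therefore shared with sut3 the high level in both ∆NLS genotypes.

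On the other side of sut3, the difference was smaller. sut1 had 5.26, 7.69 and 5.77 CPM in the control, 5.74, 4.90 and 6.87 CPM in TyrRS-WT, 8.27, 7.98 and 7.83 CPM in TyrRS-WT∆NLS, 4.35, 6.89, 6.78 and 5.63 CPM in TyrRS-E196K, and 10.1, 13.1, 11.5 and 11.3 CPM in TyrRS-E196K∆NLS. The 7 libraries of both ∆NLS genotypes were thus above the other 10. In TyrRS-WT∆NLS the change against control was 0.36 ± 0.17 (log2, SE), with an adjusted p of 0.303 in edgeR, and in the comparison of TyrRS-WT with TyrRS-WT∆NLS it was -0.46 ± 0.17 (adjusted p = 0.354, edgeR). TyrRS-WT and TyrRS-E196K differed from the control by -0.10 ± 0.17 and -0.08 ± 0.16, with signs that changed when single libraries were left out. In TyrRS-E196K∆NLS the level was 0.88 ± 0.16 above control on the log2 scale.

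Further away the pattern was not seen. slv, which encodes a sugar carrier of the SWEET family and shares exon sequence with sut1, had a mean of 11.6 ± 1.36 CPM (SD, n = 3) in the control and 12.1 ± 0.515 CPM (SD, n = 3) in TyrRS-WT∆NLS. Vps28, a subunit of the ESCRT-I complex, had adjusted p of at least 0.583 in the comparisons with control that were tested. The genes beyond sand, namely uno (CG8712), the mechanically gated channel gene Tmem63 (CG11210) and the ubiquitin ligase subunit Cul4, also did not pass the test in these 3 comparisons. Their log2 fold changes against control, in all 4 transgenic genotypes, lay between -0.35 and 0.24. The rise in ∆NLS genotypes was thus measured for sut3 and sand, which are next to each other, and values of sut1 pointed the same way. sut2, on the other side of sut3, had means of 7.42 and 7.27 CPM in TyrRS-WT∆NLS and TyrRS-E196K∆NLS. Its means were 2.39 to 4.78 CPM in the other genotypes, but its libraries overlapped with the control.

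**Figure D2:**
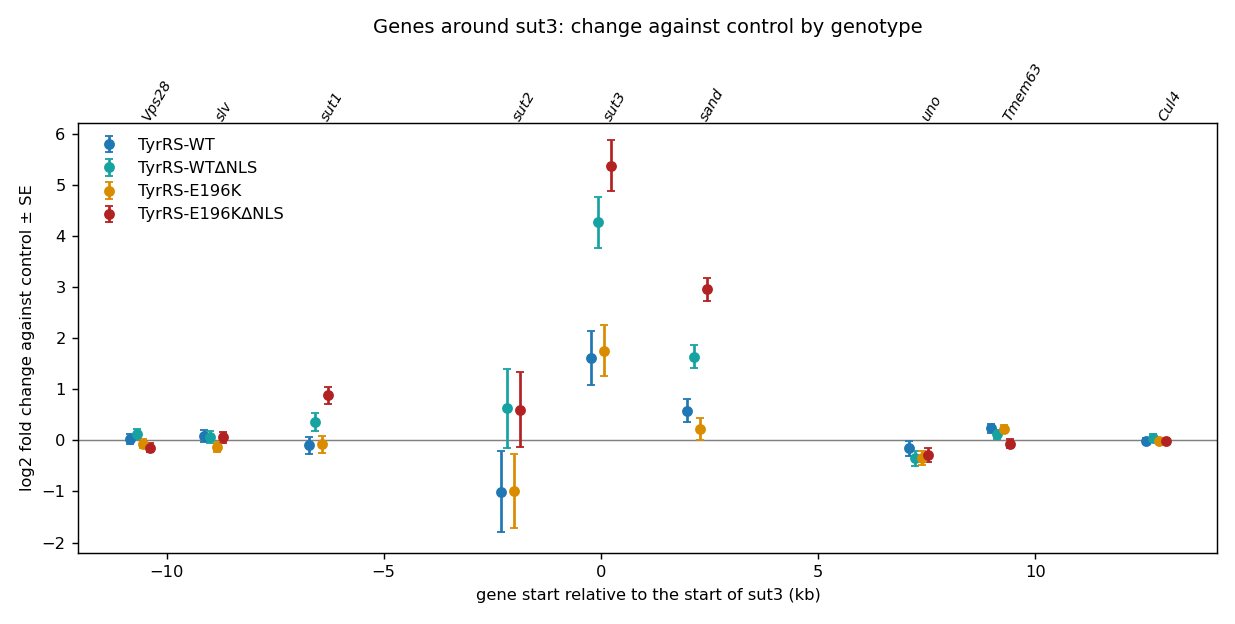
Fitted log2 fold change against control (± SE) of sut3 and the 4 annotated genes on each side, plotted at the distance of each gene's start from that of sut3 in kb, with 1 colour for each of 4 genotypes. sut3 (4.27 in TyrRS-WT∆NLS, 5.38 in TyrRS-E196K∆NLS) and sand (1.63 and 2.95) stand above the other genes, and the error bars of sut2 are the widest. Positive values are higher than control.

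The gene between sut1 and sut3, sut2, differed between libraries of the same genotype more than any other member. It had 1.77, 11.0 and 1.59 CPM in the control, so that replicate 2 was more than 6 times as high as either of the others. In TyrRS-WT it had 4.03, 0.958 and 2.18 CPM, in TyrRS-WT∆NLS 12.1, 5.99 and 4.21 CPM, in TyrRS-E196K 1.29, 1.42, 4.36 and 2.56 CPM, and in TyrRS-E196K∆NLS 8.12, 5.57, 10.5 and 4.92 CPM. With these values the control overlapped with every other genotype. The SD of log2 CPM within genotypes was 0.94, which is at the 97.0th percentile of the 9371 genes that averaged 1 CPM or more, whose median SD was 0.14. No comparison of sut2 passed the test, with adjusted p of 0.504 or more in edgeR. The change in TyrRS-WT∆NLS against control was 0.63 ± 0.77 (log2, SE), and without control replicate 2 it was 2.15 ± 0.72 (adjusted p = 0.126, edgeR). Without this library the signs for TyrRS-WT and TyrRS-E196K against control also turned, from -1.0 to 0.51 and from -0.99 to 0.53.

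The sut2 level went along with an unlabelled difference between libraries. A surrogate variable, a number for each library that summarises variation shared by many genes and not explained by genotype, was estimated with sva from these 9371 genes. In 5 of 5 genotypes every library with a positive value had more sut2 than every library with a negative one, with 8 positive and 9 negative libraries in all. The same held for 0.928% of the 9371 genes. Across the 17 libraries, deviations of sut2 from its genotype means had a Pearson correlation of 0.845 with the variable, and for the other members it was between -0.388 and 0.35. This is a description, since sut2 itself was among the genes used to estimate the variable, and whether it marks the sequencing batch was not tested. With the variable as a covariate the SE of sut2 in TyrRS-WT∆NLS against control fell from 0.77 to 0.37, the change was 0.60, and the adjusted p was 0.479 (edgeR).

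**Figure D3:**
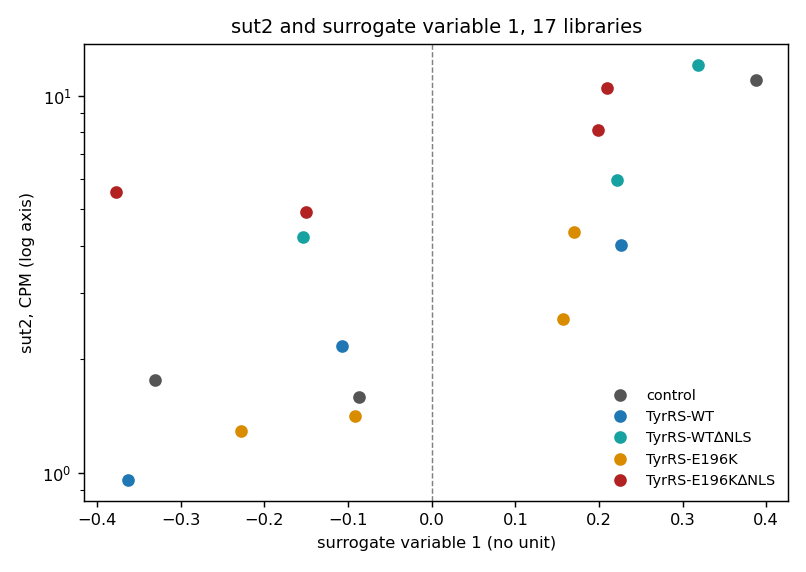
CPM of sut2 (logarithmic axis) against surrogate variable 1 (no unit) in the 17 libraries, coloured by genotype. Within each of the 5 genotypes, libraries to the right of the dashed line at 0 lie above those to the left, for example control replicate 2 at 11.0 CPM and the other control libraries at 1.77 and 1.59 CPM.

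sut4 was close to the limit of detection. It had 2, 1 and 3 counts in the control, 4, 2 and 2 in TyrRS-WT, 5, 7 and 5 in TyrRS-WT∆NLS, 6, 6, 1 and 6 in TyrRS-E196K, and 7, 3, 2 and 4 in TyrRS-E196K∆NLS. These are 0.019 to 0.160 CPM. At this depth no difference between genotypes was detectable, and no fold is given because 1 to 3 counts carry too much counting error.

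Tret1-1, the trehalose carrier of the blood-brain barrier, was high and even in all libraries. It had 347, 326 and 327 CPM in the control, 396, 438 and 447 CPM in TyrRS-WT, 343, 329 and 415 CPM in TyrRS-WT∆NLS, 373, 445, 473 and 403 CPM in TyrRS-E196K, and 405, 508, 445 and 403 CPM in TyrRS-E196K∆NLS. All libraries of TyrRS-WT and TyrRS-E196K were above those of the control, whereas TyrRS-WT∆NLS overlapped. The change against control was 0.35 ± 0.10 in TyrRS-E196K (log2, SE, adjusted p = 0.0539, edgeR) and 0.36 ± 0.11 in TyrRS-WT (adjusted p = 0.113, edgeR), so neither passed. For TyrRS-E196K, 7 of the 23 alternatives gave an adjusted p under 0.05, the lowest being 0.0158 with DESeq2. In TyrRS-WT∆NLS it was 0.12 ± 0.11 (adjusted p = 0.648, edgeR). Its SD within genotypes, 0.14 on the log2 scale, equalled that of the median gene.

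Tret1-2 was low in all libraries and, like its neighbour, lowest on average in the control. It had 0.848, 1.46 and 0.977 CPM in the control, 1.21, 2.29 and 3.17 CPM in TyrRS-WT, 2.34, 1.93 and 3.61 CPM in TyrRS-WT∆NLS, 1.89, 2.34, 2.74 and 1.53 CPM in TyrRS-E196K, and 1.55, 2.38, 2.31 and 1.86 CPM in TyrRS-E196K∆NLS. The control libraries were below those of every transgenic genotype except for 1 TyrRS-WT library. Tret1-2 rose in TyrRS-WT∆NLS against control, by 1.26 ± 0.33 on the log2 scale (SE, adjusted p = 0.0400, edgeR), but 7 of the 23 alternatives did not give this call, among them the fits without control replicates 1 or 3 (adjusted p = 0.159 and 0.157). In TyrRS-WT the change was 1.01 ± 0.33 (adjusted p = 0.141, edgeR) and in TyrRS-E196K 0.95 ± 0.32 (adjusted p = 0.0824, edgeR). TyrRS-E196K and TyrRS-WT differed by -0.06 (95% interval -0.65 to 0.53). All 4 transgenic genotypes were compared with the same 3 control libraries, so these values are not independent of each other.

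Glut1 did not differ between genotypes beyond the spread of the libraries. It had 739, 642 and 538 CPM in the control, 676, 467 and 648 CPM in TyrRS-WT, 628, 507 and 585 CPM in TyrRS-WT∆NLS, 746, 726, 606 and 646 CPM in TyrRS-E196K, and 530, 612, 614 and 573 CPM in TyrRS-E196K∆NLS. All genotypes overlapped with the control. Fitted changes against control were -0.10 in TyrRS-WT (95% interval -0.37 to 0.17), -0.16 in TyrRS-WT∆NLS (-0.43 to 0.11) and 0.09 in TyrRS-E196K (-0.16 to 0.34), all on the log2 scale and with adjusted p of at least 0.622 in edgeR. In all of these comparisons, the intervals leave out a doubling or a halving of the level.

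Over all members, 0 were called in TyrRS-WT against control, where 2.3% of all genes were called, and 0 in TyrRS-E196K against TyrRS-WT, where 1.62% were. At an unadjusted p under 0.05, the first of these comparisons had sut3, Tret1-1 and Tret1-2, all higher, and the second had none, with DESeq2 calling 1 and 0. The share of all genes at this unadjusted level is not given, here or for the lists below, so no excess is read from such numbers. Libraries without overlap and higher than control were found for 1 member in TyrRS-WT (7.59% of all genes), 4 in TyrRS-WT∆NLS (10.0%) and 3 in TyrRS-E196K (8.77%).

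**Figure D4:**
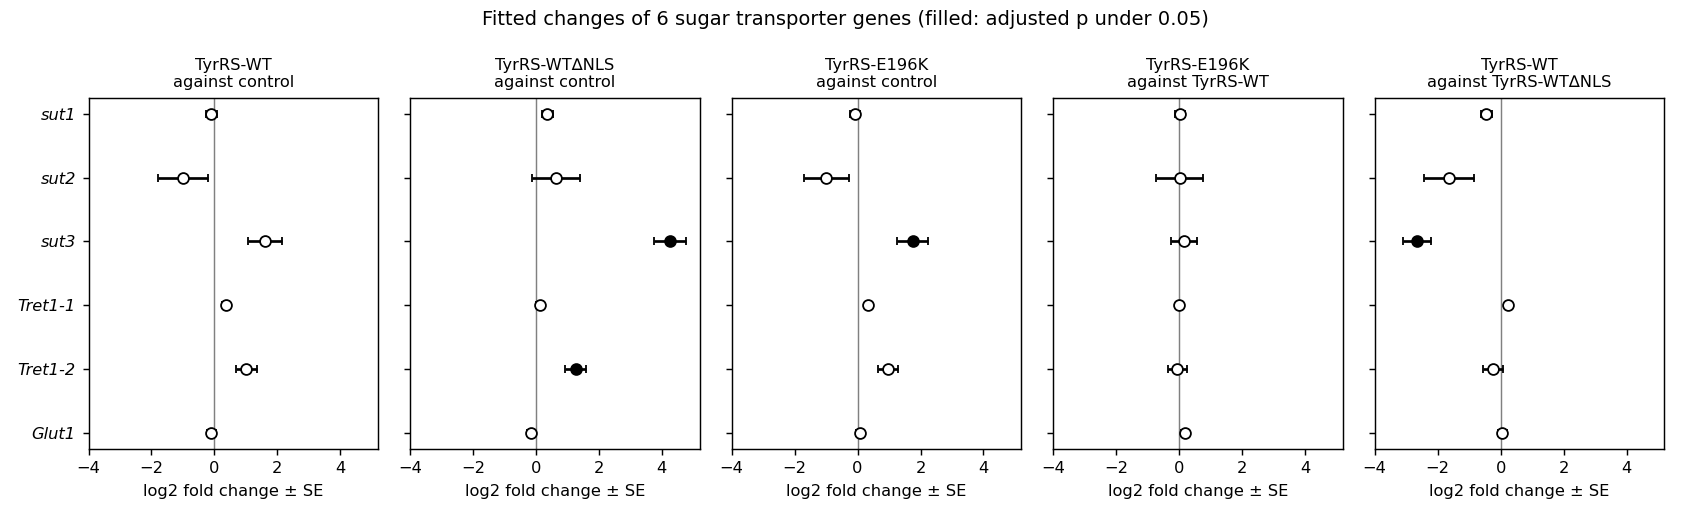
Fitted log2 fold change (± SE) of 6 sugar transporter genes in the 5 tested comparisons, with 1 panel for each, where values above 0 are higher in the genotype named first. sut4 is left out because of its low counts. Filled circles mark an adjusted p under 0.05 in edgeR: sut3 in 3 panels and Tret1-2 in TyrRS-WT∆NLS against control.

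Other carriers and the enzymes that use the sugar changed in few cases. Of 20 other genes of the SLC2 type, 8 averaged 1 CPM or more, and 1 passed in TyrRS-WT against control: CG1208, which had 21.6 to 22.7 CPM in TyrRS-WT and 12.3 to 13.7 CPM in the control (log2 fold change 0.77 ± 0.18, SE, adjusted p = 0.0340, edgeR), a call kept in 17 of 23 alternatives. In the same comparison TyrRS-WT had lower sums of the retina genes (8368 to 10474 CPM, control 15167 to 19620 CPM) and of the 10 glial genes (3696 to 3944 CPM, control 4156 to 4617 CPM), whose part was not tested. One passed in TyrRS-E196K against control, CG14606, which is outside the rule for named genes because of its low level. It had 0 counts in all control libraries and 0.0974 to 0.331 CPM in TyrRS-E196K, so no fold is given. In the other 3 comparisons none of the 20 passed in edgeR, with 2 or 3 genes at an unadjusted p under 0.05 in each and 0 to 2 called by DESeq2. Median log2 fold changes of this list were between -0.08 and 0.26, with 0.00 over all genes.

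In the list of 10 genes of trehalose and glycogen metabolism, Tps1 stood out, which encodes the enzyme that makes trehalose. It had a mean of 552 ± 57.2 CPM in the control and 577 ± 53.6 CPM in TyrRS-WT (SD, n = 3 each), but 845 ± 116 CPM in TyrRS-WT∆NLS (SD, n = 3), 848 ± 69.1 CPM in TyrRS-E196K and 918 ± 138 CPM in TyrRS-E196K∆NLS (SD, n = 4 each). No library of the first pair of genotypes reached the lowest of the other genotypes, 716 CPM. Tps1 rose against control in TyrRS-WT∆NLS (log2 fold change 0.61, adjusted p = 0.0108, edgeR) and in TyrRS-E196K (0.62, adjusted p = 0.00483), and was higher in TyrRS-E196K than in TyrRS-WT (0.56, adjusted p = 0.0219), the last of these in 18 of 23 alternatives. It was lower in TyrRS-WT than in TyrRS-WT∆NLS (-0.55, adjusted p = 0.0418), a call kept in 12 of 23 alternatives. Its mean in TyrRS-E196K was close to that in TyrRS-WT∆NLS, whereas that of sut3 was 0.319 and 1.84 CPM. CG5171, a predicted trehalose phosphatase, rose in TyrRS-WT∆NLS against control by 0.46 ± 0.12 (log2, SE, adjusted p = 0.0317, edgeR), a call kept in 17 of 23 alternatives, and none of the 10 passed in TyrRS-WT against control (2 at an unadjusted p under 0.05 in edgeR, 0 called by DESeq2).

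Among 15 genes of glycolysis, 2 passed the test, both in TyrRS-E196K against control. ImpL3, the lactate dehydrogenase gene now called Ldh, rose by 2.19 ± 0.50 (log2, SE, adjusted p = 0.0223, edgeR), with 24.4 to 40.5 CPM in TyrRS-E196K and 5.12 to 10.8 CPM in the control. Gapdh1, one of a pair of genes for glyceraldehyde-3-phosphate dehydrogenase, fell by 0.41 on the log2 scale (adjusted p = 0.0414, edgeR), a call kept in 12 of 23 alternatives. Of 4 monocarboxylate carrier genes, chaski (CG13907), which moves lactate and pyruvate in glia, rose in TyrRS-E196K against control by 0.37 ± 0.09 (adjusted p = 0.0237, edgeR). None of 5 sugar sensing genes passed in any of the 5 comparisons (0 to 2 at an unadjusted p under 0.05 in edgeR, 0 called by DESeq2). In TyrRS-E196K against control the glial markers wrapper and alrm fell, by 0.66 and 0.45 on the log2 scale (adjusted p = 0.0340 and 0.0309, edgeR), calls kept in 17 and 18 of 23 alternatives, while the other 8 of 10 did not pass. The part of glia in the changes of ImpL3 and chaski was not tested.

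The genes most like sut3 were found by Pearson correlation of log2 CPM over the 17 libraries, among 9370 other genes averaging 1 CPM or more. They were the non-coding RNA CR43242 (r = 0.96), the DNA repair gene FANCI (0.95), CG15475 (0.939), sand (0.934) and the cytochrome P450 pseudogene Cyp6a15Psi (0.925). All libraries share the genotype differences, so these values describe the order of genotypes more than covariation within them, where the correlations were 0.118 to 0.435. FANCI had 2.72, 3.85, 7.97, 4.43 and 8.80 CPM on average in control, TyrRS-WT, TyrRS-WT∆NLS, TyrRS-E196K and TyrRS-E196K∆NLS. It shows the same order of genotypes as sut3, with smaller steps. Of these 5 genes, 3 are on 2R with sut3, namely sand, Cyp6a15Psi at a distance of 0.48 Mb and FANCI at 0.845 Mb, and the other 2 are on 2L. The likeness includes the libraries of TyrRS-E196K∆NLS, the genotype used to choose sut3, so nothing is read from these positions.

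For the other members, the genes most like them were of several kinds. sut1 was most like sand (r = 0.908), followed by CG33296 (0.859) and Cyp6a15Psi (0.852). sut2 was most like CG4839 (0.871), Fnta (0.865), a subunit of a protein prenyltransferase, and ple (0.862), which encodes tyrosine hydroxylase of dopamine synthesis. These 3 also followed sut2 within genotypes, with correlations of deviations of 0.81 to 0.879. Tret1-1 was most like CG5604 (0.84), CG5270 (0.819) and the glucose dehydrogenase gene Gld (0.8), and Tret1-2 like Idgf2 (0.847), a secreted chitinase-like protein, the metal transporter gene Mvl (0.829) and pen (0.812). Glut1 was most like the potassium channel gene Shab (0.956), CG42732 (0.946), which encodes another potassium channel, and the axon guidance receptor gene robo (0.924), with correlations of deviations of 0.941 to 0.962. Between members, the highest correlation was that of sut1 and sut3 (0.803), and that of their deviations within genotypes was -0.024. Within genotypes the highest was that of sut3 and Glut1 (0.797), which had -0.164 over libraries. Tret1-1 and Tret1-2 had 0.607 over libraries and 0.69 within genotypes. All of these values are descriptions over 17 libraries.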

How the data were processed

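The study measured poly(A) RNA of fly brains, with 75 bp paired-end unstranded reads. According to the labels and methods, the authors trimmed reads with Trimmomatic 0.32, used TopHat2 2.0.12 for mapping to BDGP6 and HTSeq 0.6.1 for counting per gene, and removed 3 libraries as outliers. The deposited counts are not normalized. A deposited table of normalized values was not used. The 6 lines that are not genes (no feature 2.57% to 3.8%, ambiguous 4.87% to 6.32% of counts on genes and such lines together) were left out. Columns were matched to libraries by name, and 1 TyrRS-WT∆NLS column has another number than its label and no replicate number here. Coordinates and exon lengths come from an Ensembl annotation of the same assembly that holds 17253 of 17559 identifiers.

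Counts of 16163 genes were fitted with edgeR 4.0.16 (R 4.3.3, TMM, robust quasi-likelihood, genotype only, 17 libraries). The authors used DESeq2 1.14.1 with a batch factor, which could not be included. An SE is the log2 fold change divided by the root of F, and 95% intervals are 1.96 SE. Counts at this depth (29380481 to 56030758 per library) limit sut3 and sut4, and the spread between replicates limits the rest. For correlations, CPM were put on the log2 scale after adding a prior count of 2. Alternatives were a filter (filterByExpr), scaling by DESeq2's size factors, the Wald test of DESeq2 1.42.0, a fit of only the 2 genotypes, a block for the replicate number, a covariate from sva 3.50.0 (1 surrogate variable), and leaving out each library. The fit was tested on simulated data.

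The members and lists were chosen with earlier results of these data known. Named are the 7 members, listed genes that passed the test and averaged 1 CPM or more (at most 5 for each list and comparison), 4 genes on each side of sut3, and the 5 genes most like sut3 or 3 most like each other member over 1 CPM.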

Additional observations from a re-analysis of the deposited data

Results flagged for a closer look

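In the groups of 4 libraries, 13 genes were checked in each of 2 genotypes for a library that stands apart from the others by Dixon's criterion, and 1 did. sut4 had 0.019 CPM in TyrRS-E196K replicate 3, beside 0.127, 0.142 and 0.146 CPM in the others, which is 1 count beside 6, 6 and 6. Chance sets apart about 1 in 20 such groups.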

How the results depend on the processing

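For the tested comparisons the side of the threshold was compared, and 28 calls were lost and 14 gained under the 23 alternatives. For TyrRS-E196K∆NLS, which has no test, values were compared with the spread, and 2 moved by more than that. Of 2682 log2 fold changes of the members and neighbours, 2638 stayed the same by these rules. Signs changed in 86, none of them called, and apart from sut2 without control replicate 2 the values whose sign changed had a size of at most 0.24 in the fit of all libraries with edgeR. The calls of sut3 in TyrRS-WT∆NLS against control and against TyrRS-WT were kept in all alternatives. Those of sut3 in TyrRS-E196K (lost in 16) and Tret1-2 in TyrRS-WT∆NLS (lost in 7) against control were not, and the cause was not tested. sut4 did not pass filterByExpr and has no value there. With DESeq2's size factors, 35 of 35 mean levels stayed within the spread.

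DESeq2 called more genes: 754 in TyrRS-WT against control (371 in edgeR), 1113 in TyrRS-WT∆NLS (620), 1627 in TyrRS-E196K (1027), 448 in TyrRS-E196K against TyrRS-WT (262), 328 in TyrRS-WT against TyrRS-WT∆NLS (194), and in TyrRS-E196K∆NLS 1019 against TyrRS-WT (615), 457 against TyrRS-WT∆NLS (228) and 1461 against TyrRS-E196K (905). With only the 2 genotypes compared, 664 were called in TyrRS-E196K against control. The number of members called was 1 in TyrRS-WT against control with DESeq2 (0 in edgeR), and in TyrRS-E196K against control 2 with filterByExpr, 3 with DESeq2 and 0 with only the 2 genotypes (1 in edgeR). Replicate numbers did not pair the libraries: deviations of 27 pairs with the same number had a mean correlation of -0.011. With the replicate number as a block, and without the unnumbered library, 353 genes and 1 member were called in TyrRS-WT∆NLS against control, 3 members in TyrRS-E196K against control, and 92 genes in TyrRS-E196K∆NLS against TyrRS-WT∆NLS.

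Leaving out 1 library, the called genes ranged from 203 to 398 and the members from 0 to 1 in TyrRS-WT against control, from 298 to 774 and 1 to 2 in TyrRS-WT∆NLS, and from 440 to 1072 and 0 to 2 in TyrRS-E196K. They ranged from 154 to 280 in TyrRS-E196K against TyrRS-WT, 107 to 210 in TyrRS-WT against TyrRS-WT∆NLS, and, for TyrRS-E196K∆NLS, from 479 to 803 against control, 385 to 636 against TyrRS-WT, 118 to 278 against TyrRS-WT∆NLS and 620 to 965 against TyrRS-E196K.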

Other observations

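Genes near sut3 on 2R were counted after its neighbours' values had been seen, so this is a description. Of the 50 genes most like sut3, 18 (36.0%) lie on 2R and 7 (14.0%) start within 1 Mb of it, beside 20.22% and 2.19% of the 9370 genes ranked. Likeness was taken over all libraries, including those of TyrRS-E196K∆NLS that led to the choice of sut3, so nothing is read from these shares. Of 334 tested genes within 1 Mb, 19 (5.69%) were called in TyrRS-WT∆NLS against control in either direction, beside 3.84% of all genes. Of these 19, 15 were higher, beside 386 of the 620 genes called over all. In the other tested comparisons the shares were 2.69% within 1 Mb and 2.3% of all genes for TyrRS-WT against control, 5.39% and 6.35% when TyrRS-E196K was set against control, 2.69% and 1.62% when it was set against TyrRS-WT, and 1.5% and 1.2% for TyrRS-WT against TyrRS-WT∆NLS. In TyrRS-E196K∆NLS, the genotype used to choose sut3, the shares past the threshold were 6.89% within 1 Mb and 4.79% of all genes against control, 6.59% and 3.8% against TyrRS-WT, 1.8% and 1.41% against TyrRS-WT∆NLS, and 12.0% and 5.6% against TyrRS-E196K, and nothing is read from them.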
